A study of Drosophila melanogaster with 9 samples.

Results

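The proteasome subunit genes were taken from the count table as the rows whose FlyBase symbol begins with Prosalpha, Prosbeta, Rpt and a number, or Rpn and a number. This rule gave 48 of 17611 genes, of which 32 are core subunits and 16 are paralogs that carry a T or R suffix. The poly-A RNA-seq data comprise 9 libraries labelled as brains of L3 larvae, with 3 libraries each of yw (the control strain, which carries mutations in the genes yellow and white), an L(3)mbt mutant and a Lint-O mutant. L(3)mbt is a chromatin protein whose loss causes malignant brain tumors, and Lint-O was isolated by the study as a partner of it. Per the study's methods, L(3)mbt mutants carry a temperature-sensitive allele, and Lint-O mutants carry a small deletion made with CRISPR. Lint-O mutants are listed with the same yellow and white mutations as yw, whereas the L(3)mbt stock is listed with a mutation in white only. As listed, L(3)mbt mutants thus differ from yw in stock as well as in the allele, and these cannot be told apart. The methods also state that eggs of all 3 groups, the control included, were laid at 25°C. The animals were then reared for 5 to 6 days at 29°C, as stated there.

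The 26S proteasome degrades proteins that carry ubiquitin chains. Its 20S core particle is a barrel of outer alpha rings, which gate the entrance, and inner beta rings, which hold the proteolytic sites. The 19S regulatory particle sits on the barrel and consists of the Rpt ATPases, which unfold and thread the substrate, and the Rpn subunits, which bind and remove ubiquitin and hold the particle together. In Drosophila many core subunits have duplicated genes, several of which are expressed mainly in the male germline, where Prosalpha6T for example serves in sperm development. L(3)mbt mutant brains are known for the ectopic expression of germline genes, so the paralogs were set beside their core counterparts in each group.

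Library totals ranged from 18681293 to 31519287 counts. The targeted gene l(3)mbt had 123 to 141 CPM (counts per 1000000 counts of the library) in yw and 75.9 to 84.1 CPM in L(3)mbt mutants, and Lint-O had 21.0 to 21.6 CPM in yw and 3.50 to 3.88 CPM in Lint-O mutants. In the other mutant both lay above yw, with l(3)mbt at 170 to 192 CPM in Lint-O mutants and Lint-O at 24.9 to 25.5 CPM in L(3)mbt mutants. Of these, DESeq2 called only the rise of l(3)mbt (threshold given below). Several markers of the labelled tissue were nearly absent, while others, and the ovarian somatic markers, were expressed. In all 9 libraries, 4 of 7 neuroblast genes (dpn and ase among them) and 4 of 7 neuron genes (brp and nSyb among them) stayed under 1 CPM. So did the glial gene repo, 1 of 5 glia genes. Of these, dpn, ase and repo reached at most 0.054, 0.046 and 0.14 CPM, respectively. On the other hand, 1 of 7 neuroblast genes, 3 of 7 neuron genes (elav at 48.0 to 74.1 CPM) and 3 of 5 glia genes (loco at 132 to 173 CPM) exceeded 10 CPM throughout, as did all 4 ovarian somatic genes, with tj at 403 to 623 CPM. The table's own column names for the libraries labelled yw read EGFP. The paper's separate RNA-seq of cultured ovarian somatic cells, with L(3)mbt or Lint-O depleted, used GFP siRNA in its control. The groups below are therefore those of the labels, and the cells they came from were not tested.

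Core subunits were abundant and nearly level across the groups, whereas 1 paralog, Prosbeta2R2, was about 4-fold higher in both mutants. In L(3)mbt mutants against yw, DESeq2 (Benjamini-Hochberg adjusted p under 0.01) called 3 of the 37 members tested higher (Prosbeta2R2, Rpt4R and Rpn10) and 5 lower (Prosbeta3, Prosbeta4, Rpn2, Rpn5 and Rpn6). Over all 10687 genes tested in this comparison, 18.1% were called higher and 12.6% lower. In Lint-O mutants against yw, Prosbeta2R2 was the 1 member called higher and Rpn5 the 1 called lower, where the background was 13.4% higher and 7.52% lower of 10422 genes. Between the L(3)mbt and Lint-O mutants, 0 of 36 members tested passed in DESeq2 and 0 of 37 in edgeR (4 and 6, respectively, at an unadjusted p under 0.05), where 14.9% of all genes did in DESeq2. The other 11 members, all of them paralogs, had too few counts for a test in any comparison.

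The 5 lower calls in L(3)mbt mutants depended on the scaling of the libraries. With total counts as size factors, 7 members were called higher (Prosbeta2R2, Rpt4R, Rpn10, Prosbeta7, Rpt3R, Rpt4 and Rpt6R) and 0 lower, and in Lint-O mutants 1 was called higher and 0 lower. This scaling moved the median log2 fold change of all genes by 0.06 in L(3)mbt mutants and by 0.05 in Lint-O mutants.

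**Figure D1:**
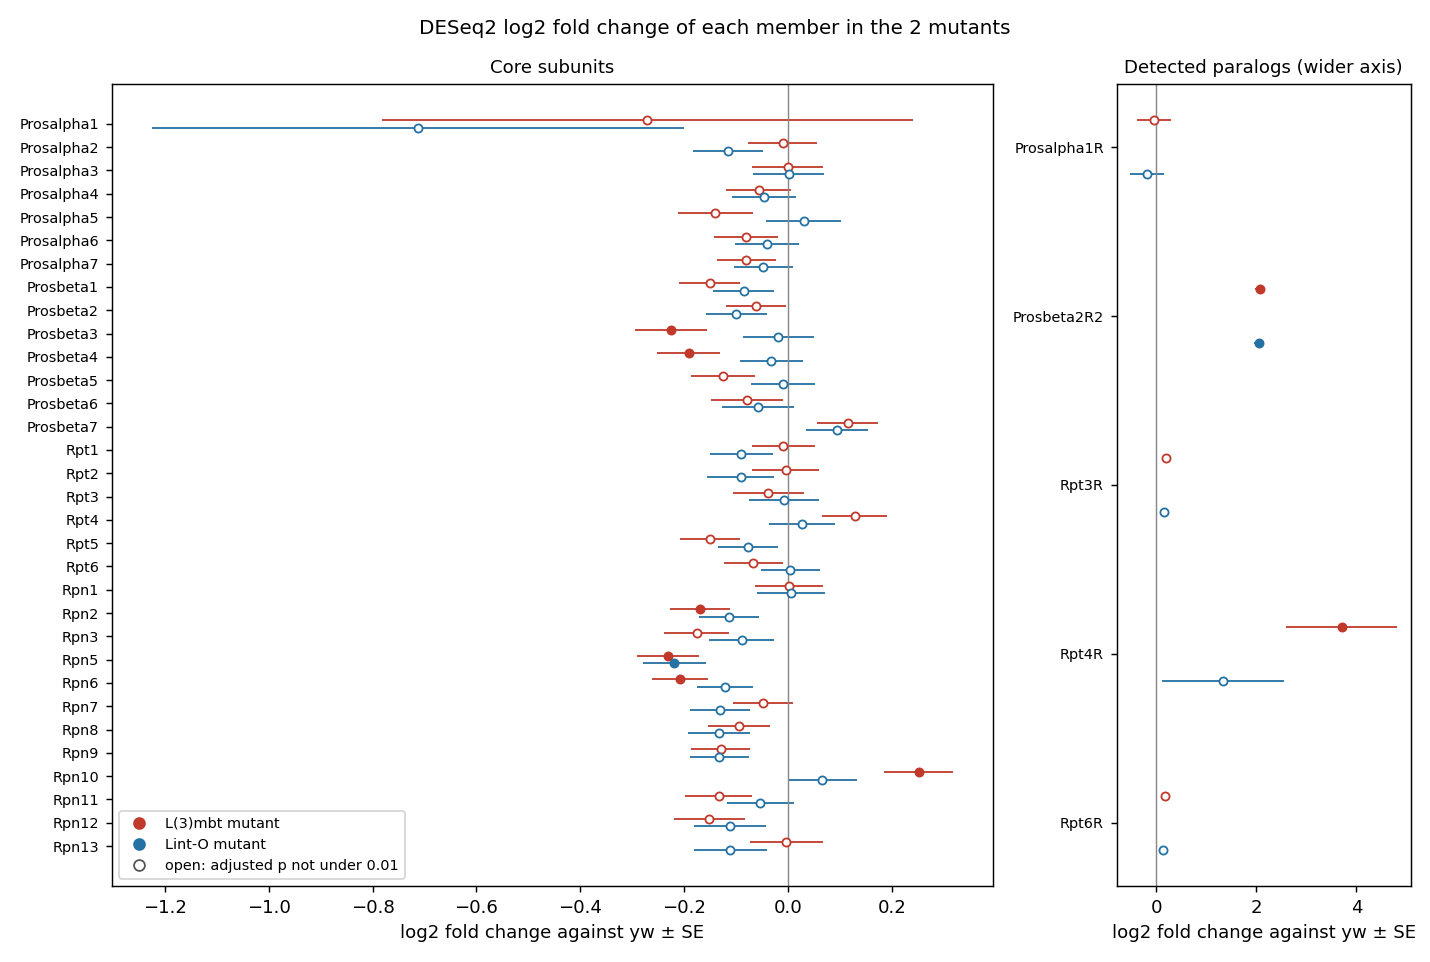
Each point is the DESeq2 log2 fold change of 1 member against yw with its SE (3 libraries a group), in red for L(3)mbt mutants and in blue for Lint-O mutants, and filled where the adjusted p was under 0.01. Core subunits other than Prosalpha1 lie between -0.23 and 0.25, while Prosbeta2R2 lies near 2.07 in both mutants and Rpt4R at 3.71 in L(3)mbt mutants.

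All 32 core subunits were detected in all libraries. Together they made up 1.06% ± 0.0452 of the counts in yw, 1.05% ± 0.0435 in L(3)mbt mutants and 1.05% ± 0.0218 in Lint-O mutants (SD, n = 3), so the groups overlapped. Levels between genes were compared as CPM per kilobase of exon that no other gene shares. Apart from Prosalpha1, mean levels ran from 63.6 CPM per kilobase for Rpn1, a scaffold of the regulatory particle, to 533.5 for Prosbeta5, which carries the chymotrypsin-like site. The median over the 31 genes was 248 CPM per kilobase, and the mean coefficient of variation between replicates ran from 3.69% to 6.83%.

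**Figure D2:**
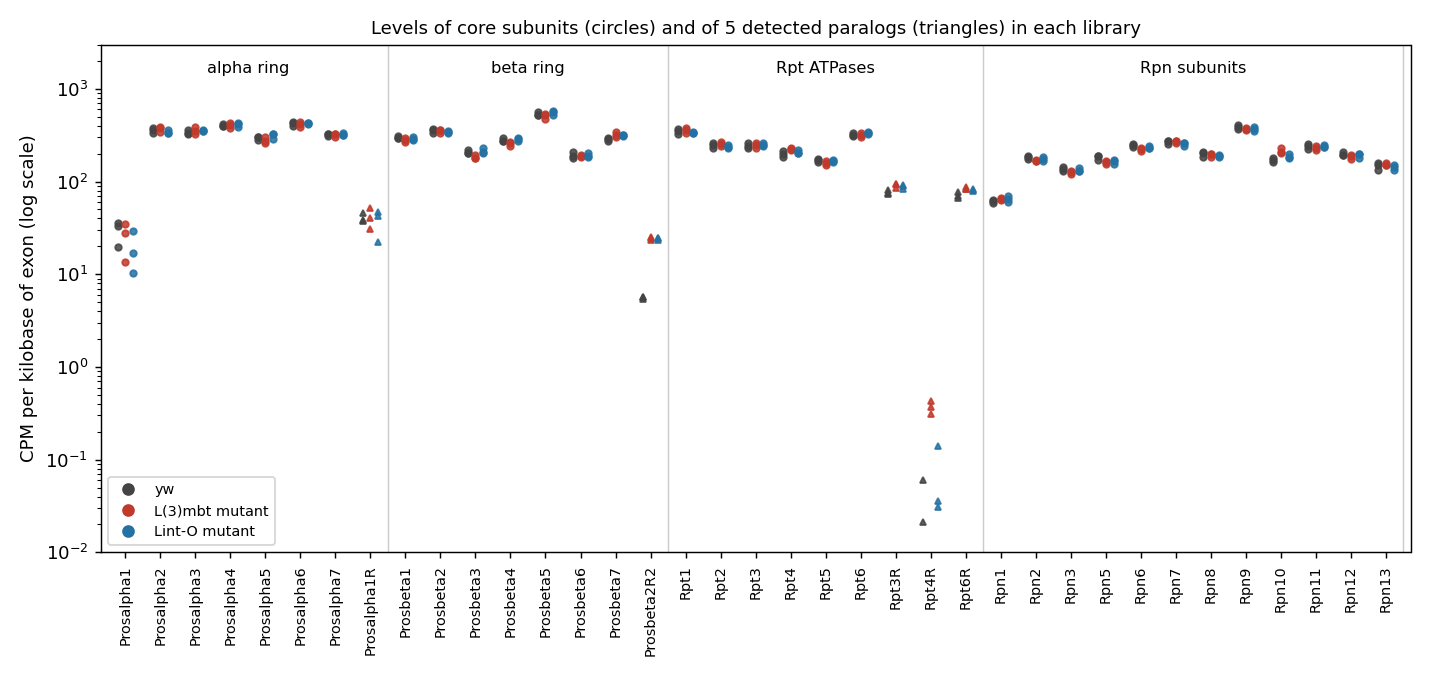
Points are single libraries, 3 for each group, on a log axis of CPM per kilobase of exon, with circles for core subunits and triangles for the 5 paralogs that reached 10 counts in a library (libraries at 0 counts are not drawn). Most core subunits form a band around 248 CPM per kilobase, Prosalpha1 and Prosalpha1R lie below it with a wide spread, and Prosbeta2R2 moves from 5.46 to 5.71 in yw up to 23.4 to 25.4 in the mutants.

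The 32 core subunits had a median log2 fold change of -0.08 in L(3)mbt mutants and -0.07 in Lint-O mutants. In L(3)mbt mutants this median was -0.13 without yw replicate 1, -0.035 when L(3)mbt mutant replicate 2 was left out and -0.024 with total counts as size factors. Over all genes tested the medians were -0.01 and 0.01. Among the 4038 tested genes whose mean reached 1000 normalized counts, a level that 31 of the core subunits exceed, the medians were -0.06 and -0.05. Of these abundant genes, 34.8% were called in L(3)mbt mutants and 22.9% in Lint-O mutants, against 6 (18.8%) and 1 (3.13%) of the 32 core subunits. For the 31 core subunits other than Prosalpha1, the 95% intervals of the log2 fold change lay within -0.36 and 0.38 in L(3)mbt mutants and within -0.34 and 0.21 in Lint-O mutants. In 10 core subunits all L(3)mbt mutant libraries lay below all yw libraries, and in 1 they lay above. Over all genes tested, L(3)mbt mutant and yw libraries did not overlap in 23.3% on the lower and 27.6% on the higher side. For Lint-O mutants 3 core subunits lay below and 1 above, and the share over all genes is not given.

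Of the 7 core alpha subunits, 0 passed the test in either mutant in DESeq2 or edgeR, and 0 had an unadjusted p under 0.05 in DESeq2. Prosalpha3 had the highest fold change of the ring in L(3)mbt mutants. Its normalized counts were 7538, 7705 and 8507 in yw, 7753, 7285 and 8693 in L(3)mbt mutants and 7895, 7805 and 8064 in Lint-O mutants. The ranges overlapped throughout, and the 95% interval of its log2 fold change in L(3)mbt mutants ran from -0.14 to 0.13.

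Prosalpha1 stood apart from the other subunits of its ring by a low level and a wide spread between replicates. Its normalized counts were 749, 439 and 825 in yw, 602, 296 and 769 in L(3)mbt mutants and 630, 225 and 373 in Lint-O mutants. The second replicate was the lowest of each group, and the groups overlapped (log2 fold change -0.27 ± 0.51 SE, adjusted p = 0.72 in L(3)mbt mutants, and -0.71 ± 0.51, adjusted p = 0.33 in Lint-O mutants, DESeq2). The paralog Prosalpha1R, whose 4 exons and 732 coding bases equal those of Prosalpha1, lies 1734 bases from it on the same strand of 2R. Prosalpha1R had 853, 829 and 1038 normalized counts in yw, 867, 649 and 1123 in L(3)mbt mutants and 907, 470 and 1013 in Lint-O mutants. Here too the second replicate was the lowest of each group and the groups overlapped (adjusted p = 0.94 and 0.76). The sum of both genes, 32.4 to 87.4 CPM per kilobase, stayed below each of the other 6 alpha subunits, which ranged from 260.7 to 437 over the libraries. Reads that match both copies may have been assigned to either or set aside in counting, so the values of this pair are uncertain.

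In the beta rings 2 of 7 core subunits (28.6%) were lower in L(3)mbt mutants, where 34.8% of the abundant genes were called in either direction. In Lint-O mutants 0 passed, 0 had an unadjusted p under 0.05 in DESeq2 and 0 were called by edgeR. Prosbeta3, a structural beta subunit, had 4262, 4294 and 4744 normalized counts in yw and 3674, 3682 and 4022 in L(3)mbt mutants. All L(3)mbt mutant libraries lay below all yw libraries (log2 fold change -0.23 ± 0.07 SE, adjusted p = 0.0037, DESeq2). In Lint-O mutants Prosbeta3 had 4238, 4169 and 4730, which overlapped with yw. Prosbeta4, also a structural subunit, fell by 0.19 on the log2 scale in L(3)mbt mutants (SE 0.06, adjusted p = 0.0059). Both calls were lost with total counts as size factors and when yw replicate 3 or either of L(3)mbt mutant replicates 1 and 2 was left out, and that of Prosbeta4 also with only the 2 groups compared.

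Prosbeta7 had the highest fold change among the core beta subunits in L(3)mbt mutants. Normalized counts were 7888, 8296 and 8586 in yw, 8820, 8386 and 9595 in L(3)mbt mutants and 8781, 8696 and 8949 in Lint-O mutants. L(3)mbt mutants overlapped with yw and the difference did not pass (log2 fold change 0.11 ± 0.06 SE, adjusted p = 0.12, DESeq2). All Lint-O mutant libraries lay above all yw libraries, but this difference did not pass either (0.09 ± 0.06, adjusted p = 0.26). The subunits with proteolytic sites, namely Prosbeta1 (caspase-like), Prosbeta2 (trypsin-like) and Prosbeta5 (chymotrypsin-like), did not pass in either mutant, and had log2 fold changes of -0.15, -0.06 and -0.13 in L(3)mbt mutants and -0.09, -0.10 and -0.01 in Lint-O mutants.

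Prosbeta2R2 (FBgn0037296), a paralog of the trypsin-like subunit gene Prosbeta2, rose in both mutants. It lies on the minus strand of 3R at 5217751 to 5219528 (Ensembl annotation of BDGP6), with 3 exons and no exon overlap with another gene. Normalized counts were 178, 176 and 173 in yw, 741, 761 and 709 in L(3)mbt mutants, and 742, 704 and 745 in Lint-O mutants. Mutant and yw libraries were far apart, whereas the mutants overlapped each other.

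The rise was 4.20-fold in L(3)mbt mutants (95% interval 3.65 to 4.83; log2 fold change 2.07 ± 0.10 SE, adjusted p = 4.55e-88, DESeq2) and 4.17-fold in Lint-O mutants (3.62 to 4.80; 2.06 ± 0.10, adjusted p = 1.77e-85). All 6 mutant libraries lay above all yw libraries, and Prosbeta2R2 was called higher under each scaling, filter, tool and left-out library tried. The difference between the mutants was 0.01 on the log2 scale with a 95% interval from -0.16 to 0.18. Prosbeta2 itself had 7444, 8067 and 8402 normalized counts in yw, 7782, 7300 and 7814 in L(3)mbt mutants and 7429, 7257 and 7632 in Lint-O mutants, so its groups overlapped. Per kilobase, Prosbeta2R2 thus made up 1.57% ± 0.118 of the sum of both genes in yw, 6.53% ± 0.434 in L(3)mbt mutants and 6.62% ± 0.0947 in Lint-O mutants (SD, n = 3). This share does not depend on the scaling between libraries.

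**Figure D3:**
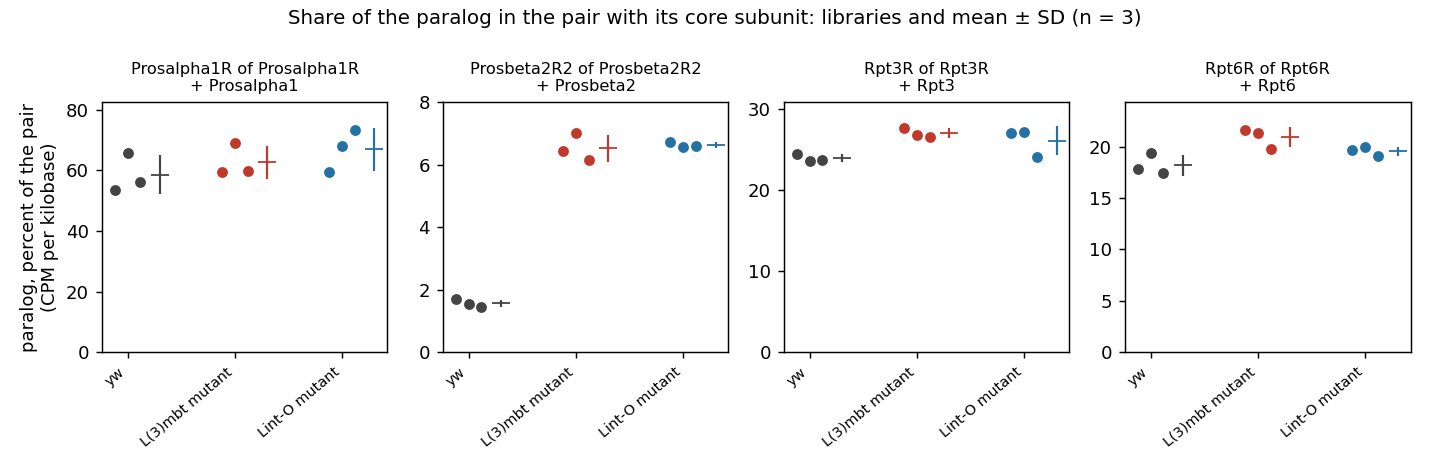
Each panel gives 1 paralog as a percentage of the summed CPM per kilobase of itself and its core subunit, with 3 libraries a group as points and the mean ± SD beside them (y axes start at 0 and differ). Prosbeta2R2 goes from 1.46% to 1.70% in yw up to 6.15% to 6.999% in the mutants, Rpt3R and Rpt6R shift by a few percentage points, and Prosalpha1R overlaps between groups.

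The genes on both sides of Prosbeta2R2 did not pass the test. CG1116, which starts 128 bases away and is transcribed in the opposite direction, had a mean of 1000.01 ± 63.2 normalized counts in yw, 966 ± 15.6 in L(3)mbt mutants and 1030.1 ± 25.3 in Lint-O mutants (SD, n = 3). Its log2 fold changes were -0.05 and 0.04 (adjusted p = 0.64 and 0.77, DESeq2). On the other side cno, which encodes a junctional scaffold protein and whose start lies 294 bases from Prosbeta2R2 on the same strand, had log2 fold changes of -0.21 and 0.13 (adjusted p = 0.034 and 0.24). These neighbors were looked up after the rise of Prosbeta2R2 was known.

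Of the 6 core Rpt ATPases, 0 were called in either mutant by DESeq2 or edgeR, and 2 in L(3)mbt mutants and 0 in Lint-O mutants had an unadjusted p under 0.05 in DESeq2. Rpt4 had the highest fold change of these in L(3)mbt mutants, with 5966, 6456 and 6962 normalized counts in yw, 6987, 6859 and 7331 in L(3)mbt mutants and 6453, 6425 and 6873 in Lint-O mutants (log2 fold change 0.13 ± 0.06 SE in L(3)mbt mutants, adjusted p = 0.098). Rpt5 had the lowest, with 6211, 6613 and 6779 in yw, 5928, 5568 and 6161 in L(3)mbt mutants and 6095, 6283 and 6204 in Lint-O mutants. All L(3)mbt mutant libraries of Rpt5 lay below all yw libraries, but the difference of -0.15 ± 0.06 did not pass (adjusted p = 0.023).

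Paralogs of Rpt3 and Rpt6 were expressed in all groups. Rpt3R had 2506, 2519 and 2757 normalized counts in yw, 3063, 2736 and 3131 in L(3)mbt mutants and 3026, 2931 and 2731 in Lint-O mutants. Yw overlapped with both mutants, and neither difference passed (log2 fold change 0.20 ± 0.07 SE, adjusted p = 0.015, and 0.16 ± 0.07, adjusted p = 0.079, DESeq2). Rpt6R had 2285, 2622 and 2418 in yw, 2863, 2717 and 2732 in L(3)mbt mutants and 2766, 2655 and 2601 in Lint-O mutants. For Rpt6R L(3)mbt mutants did not overlap with yw, yet the difference again did not pass (0.18 ± 0.06, adjusted p = 0.014, and 0.13 ± 0.06, adjusted p = 0.12). Both were called higher in L(3)mbt mutants with total counts as size factors.

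Per kilobase, Rpt3R made up 23.9% ± 0.490 of the sum with Rpt3 in yw, 27.1% ± 0.602 in L(3)mbt mutants and 26.1% ± 1.78 in Lint-O mutants (SD, n = 3). The single libraries gave 24.5%, 23.6% and 23.8% in yw, 27.7%, 26.8% and 26.6% in L(3)mbt mutants and 27.1%, 27.2% and 24.1% in Lint-O mutants. L(3)mbt mutants thus lay wholly above yw in this ratio, and so did 2 of 3 Lint-O mutant libraries. Rpt6R made up 18.2% ± 1.03 of the sum with Rpt6 in yw, 20.9% ± 0.981 in L(3)mbt mutants and 19.5% ± 0.445 in Lint-O mutants, where only Lint-O mutants overlapped with yw. No test was run on these ratios.

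Rpt4R (FBgn0036224), a paralog of Rpt4 on 3L at 11941912 to 11943485, was detected at the level of single reads. Raw counts were 2, 0 and 1 in yw, 14, 10 and 18 in L(3)mbt mutants and 5, 1 and 1 in Lint-O mutants. The L(3)mbt mutant libraries lay above all others, and yw and Lint-O mutants overlapped. The 42 counts of L(3)mbt mutants against 3 in yw correspond to a 13.8-fold ratio of CPM (95% exact interval 4.42 to 69.8, counting error only), and DESeq2 gave a log2 fold change of 3.71 with an adjusted p of 0.003. The fitted value was 4.78 without yw replicate 1 and 3.20 to 3.83 with any other library left out. That call was lost when any of the yw libraries or L(3)mbt mutant replicate 1 or 3 was left out (adjusted p = 0.010 to 0.021). Lint-O mutants had 7 counts (ratio to yw 2.69, interval 0.615 to 16.1), a difference that was not detectable at this depth. At a mean of 0.155 CPM per kilobase over all libraries against 211 for Rpt4, Rpt4R was far below its core counterpart. The nearest annotated genes on both sides (CG5883, CG7252, CG44837 and byn) had at most 2 counts in any library.

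**Figure D4:**
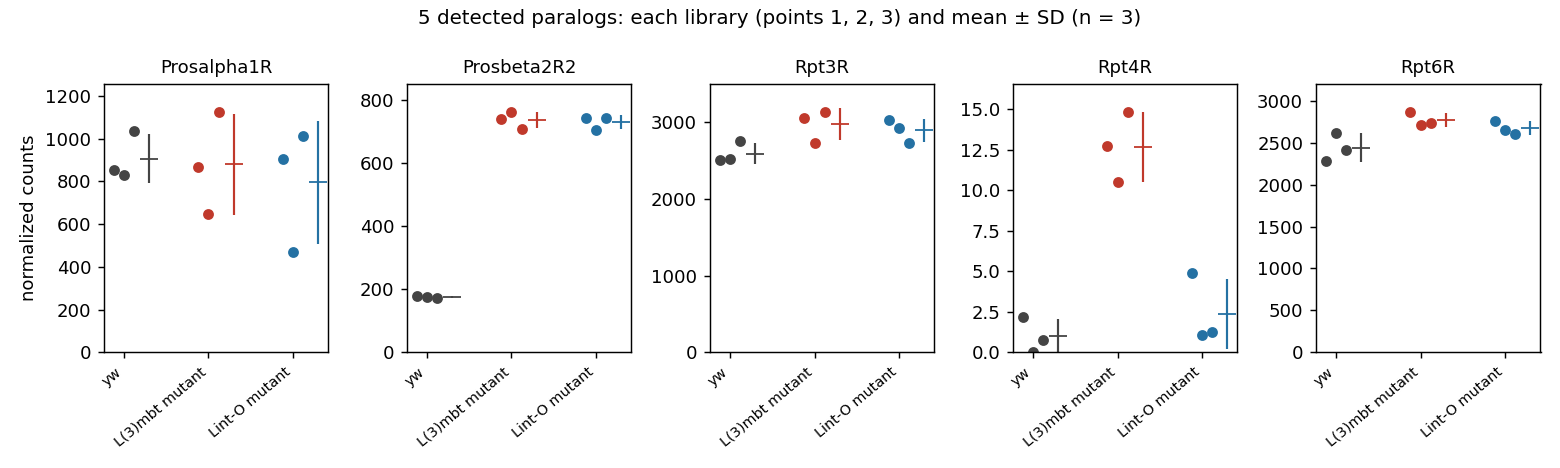
Normalized counts of the 5 paralogs that reached 10 counts in a library, with points for replicates 1, 2 and 3 from left to right and the mean ± SD (n = 3) beside them (y axes start at 0 and differ). Prosbeta2R2 separates yw from both mutants, Rpt4R separates L(3)mbt mutants from the rest at 10.5 to 14.8 normalized counts, and the other panels overlap or nearly so.

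The remaining 11 paralogs had at most 3 counts in any library. Prosalpha3T, Prosalpha4T1, Prosalpha6T, Prosbeta4R2, Prosbeta5R1, Prosbeta5R2, Rpn12R and Rpn13R had 0 counts in all 9 libraries, which allows a level of up to 0.0952 to 0.161 CPM per library (3 counts). Prosalpha4T2 reached 1 count, Prosbeta2R1 2 counts and Prosbeta4R1 3 counts. Thus none of the 4 paralogs with a T suffix exceeded 1 count in yw or in a mutant, and Prosbeta2R1, the other paralog of Prosbeta2, had 5 counts in all against 4983 for Prosbeta2R2. A change in these genes was not detectable at this depth.

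The paralogs also differed from the core genes in structure and location. In the Ensembl canonical transcripts, 6 of 16 paralogs had a single exon, as did 4 of 32 core genes, and 10 paralogs had fewer exons than their core counterpart while 6 had as many. Of the 16 paralogs, 6 lie on the chromosome arm of the core gene. Of the 5 detected paralogs none had a single exon, and Prosalpha1R alone lies on the arm of its core gene.

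Some germline genes were called higher in the same comparisons as Prosbeta2R2. In a list of 15 testis genes, 14 were matched to the table by name, and rye was not. Their summed level was 31.96 to 34.7 CPM in yw, 84.1 to 92.0 CPM in L(3)mbt mutants and 78.3 to 80.8 CPM in Lint-O mutants. Of the 9 genes tested, 6 were called higher in each mutant (background 18.1% and 13.4%). On the other hand, 9 of the 14 stayed under 1 CPM in all libraries, and the spermatogenesis genes nht and dj were at 0 counts throughout. Of 6 female germline genes 5 were matched by name, while nos was not matched and so has no value here. Of these 5, 4 (vas, bcd, grk and orb) were called higher in L(3)mbt mutants and 2 (vas and orb) in Lint-O mutants, while osk was not called. Their sum went from 26.0 to 28.7 CPM in yw to 301 to 352 CPM in L(3)mbt mutants and 168 to 176 CPM in Lint-O mutants. Most of it was the germline helicase gene vas, without which the sum was 23.0 to 26.4, 38.8 to 39.7 and 30.0 to 33.7 CPM, respectively. The part of these genes' cell types in the rise of Prosbeta2R2 was not tested. In bulk RNA, more cells of a type and more RNA per cell cannot be told apart.

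Among the 12 core Rpn subunits, 1 was called higher and 3 lower in L(3)mbt mutants, and 0 and 1, respectively, in Lint-O mutants. That is 33.3% and 8.33% called in either direction, against 34.8% and 22.9% of the abundant genes. Rpn10, a ubiquitin receptor of the regulatory particle, had 5456, 5789 and 6171 normalized counts in yw, 6713, 6576 and 7431 in L(3)mbt mutants and 5940, 5866 and 6426 in Lint-O mutants. L(3)mbt mutants lay above both other groups (log2 fold change against yw 0.25 ± 0.07 SE, adjusted p = 0.00071, DESeq2), and Lint-O mutants overlapped with yw (0.07 ± 0.07, adjusted p = 0.53). Its difference between the mutants, 0.19 ± 0.07, did not pass (adjusted p = 0.028). The call against yw was lost when yw replicate 1 was left out (adjusted p = 0.017) and likewise for L(3)mbt mutant replicate 3 (adjusted p = 0.012).

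Rpn5, a lid subunit, was the 1 core member called in both mutants. Its normalized counts were 7615, 8529 and 8589 in yw, 7086, 7169 and 6818 in L(3)mbt mutants and 7194, 7319 and 6728 in Lint-O mutants. All mutant libraries lay below all yw libraries, by -0.23 ± 0.06 (adjusted p = 0.00056) and -0.22 ± 0.06 (adjusted p = 0.0017) on the log2 scale in DESeq2. The call in Lint-O mutants was lost without yw replicate 2, yw replicate 3 or Lint-O mutant replicate 3. In L(3)mbt mutants, the lid subunit Rpn6 fell by 0.21 (adjusted p = 0.00051, a call lost without L(3)mbt mutant replicate 2) and the base scaffold Rpn2 fell by 0.17 (adjusted p = 0.0097), the latter a call that ended in 10 of 16 alternative fits. The deubiquitinase Rpn11 (-0.13 and -0.05) and the ubiquitin receptor Rpn13 (-0.0041 and -0.11) did not pass in either mutant.

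A list of 21 proteasome-associated factors, chosen for assembly, activation, transcription and substrate delivery, was examined in the same fits. In L(3)mbt mutants 1 of 19 tested was called higher and 4 lower, and in Lint-O mutants 1 was called higher and 2 lower, all by less than 0.5 on the log2 scale (background 18.1% and 12.6%, and 13.4% and 7.52%, respectively). That is 26.3% and 15.8% of the list called in either direction. The median log2 fold changes of the list were -0.13 and -0.06. The genes named next were chosen after their values were seen.

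Pomp, a chaperone of 20S assembly, had 4106, 4355 and 4389 normalized counts in yw, 5072, 4872 and 5397 in L(3)mbt mutants and 5044, 4825 and 4845 in Lint-O mutants. All mutant libraries were above all yw libraries (log2 fold change 0.26 ± 0.06 SE, adjusted p = 5.13e-05, and 0.20 ± 0.06, adjusted p = 0.0040, DESeq2), although the Lint-O mutant call was lost in edgeR and in 6 of 9 fits with 1 library left out. REG, an activator of the 20S particle, fell by 0.24 in both L(3)mbt mutants (adjusted p = 0.0011) and Lint-O mutants (adjusted p = 0.0027). In L(3)mbt mutants CG8858, the counterpart of the yeast proteasome adaptor Ecm29, fell by 0.34, Ufd1, a cofactor of the segregase TER94, fell by 0.27, and Uba1, the ubiquitin-activating enzyme, fell by 0.16. In Lint-O mutants maf-S, the small Maf partner of the transcription factor cnc, fell by 0.27. The calls of REG in both mutants, of Uba1 and of maf-S were lost with total counts as size factors and in at least 4 fits with 1 library left out, and the REG call in Lint-O mutants also in edgeR. Between the mutants 2 of 19 factors were called, against 14.9% of all genes. CG8858 was lower in L(3)mbt mutants than in Lint-O mutants (log2 difference -0.33 ± 0.06 SE, adjusted p = 4.04e-06, DESeq2), and Ubqn, a ubiquitin-binding shuttle protein, was higher (0.22 ± 0.06, adjusted p = 0.0044, a call lost in 8 of 16 alternative fits). Uch-L5R, a paralog of the deubiquitinase gene Uch-L5, had 0 counts in all libraries. The other factor that was not tested, Ubi-p63E, had at most 1 count in any library, while Ubi-p5E of the same list had 7266 to 11890. How repeated or shared reads were counted is not stated, so the low count of Ubi-p63E does not show that it was silent.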

How the data were processed

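Per the labels, L3 larval brain RNA was poly-A selected and sequenced. The authors aligned reads and deposited raw counts per gene (HISAT2, featureCounts and dm6 are named in the submitters' processing notes, versions not given). Gene symbols, positions and exons came from the Ensembl 115 annotation of BDGP6.54.

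DESeq2 1.42.0 (R 4.3.3) was fitted over all 9 libraries, with Benjamini-Hochberg adjustment over all genes and an adjusted p under 0.01. Normalized counts are counts divided by DESeq2 size factors. CPM used library totals. Intervals are 95% Wald intervals unless called exact. Alternatives were edgeR 4.0.16, other scalings and filters, the 2 groups alone, a replicate block, a threshold of 0.05 and each library left out. The DESeq2 fit was also run on counts simulated with its own size factors and dispersions and the means of yw. Such counts follow the model by design and cannot show whether it holds for these libraries. Replicate pairs of each group differed beyond sampling noise. The study calls its RNA-seq samples biological triplicates. The labels name no separate animals or pools, so p-values measure the spread between these libraries, whatever their source.

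Members and lists were chosen with earlier results of these data known, and the abundant-gene background (mean of at least 1000 normalized counts) after seeing them. Per-library values were given for paralogs with at least 10 counts in a library, for core members called with a log2 fold change of at least 0.5 in size (there were 0), and for the core member with the highest and lowest fold change of each subcomplex in the L(3)mbt mutant. Other genes are named by call. Sequences were not used here.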

Additional observations from a re-analysis of the deposited data

How the results depend on the processing

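Each mutant was compared with yw under 16 alternative settings, some of which only left out a library of the other mutant. The rise of Prosbeta2R2 kept its direction and its call in all of them. Small core changes did not: higher and lower calls among members in L(3)mbt mutants (3 and 5) became 7 and 0 with total counts as size factors, 3 and 8 with TMM, 3 and 3 with only the 2 groups compared, and 5 and 8 at an adjusted p under 0.05. Leaving out single libraries gave 1 to 4 higher and 1 to 7 lower. The 1 lower call in Lint-O mutants became 0 with total counts and 0 to 1 with libraries left out. Between the mutants (0 and 0), the replicate block gave 1 and 1, a threshold of 0.05 gave 1 and 2, TMM and only the 2 groups gave 1 lower each, and left-out libraries gave 0 to 1 lower.

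Among associated factors, total counts as size factors gave 2 higher and 2 lower in L(3)mbt mutants and 0 lower in Lint-O mutants, where edgeR gave 0 higher and 1 lower and a threshold of 0.05 gave 4 lower. With libraries left out, lower calls were 2 to 4 in L(3)mbt mutants, and in Lint-O mutants 0 to 1 were higher and 0 to 3 lower. In Lint-O mutants total counts moved the median log2 fold change of core subunits from -0.07 to -0.016. That of the 5 detected paralogs moved from 0.16 to 0.21. Left-out libraries gave -0.11 to -0.030 and 0.12 to 0.21, respectively. Rpt4R reached 10 counts only in L(3)mbt mutants, so the paralog median depends in part on this filter and is not comparable with the core median. In L(3)mbt mutants left-out libraries gave core medians of -0.13 to -0.035 and fitted Rpt4R log2 fold changes of 3.20 to 4.78.

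Signs near 0 turned. Prosalpha1R in L(3)mbt mutants was 0.015 with total counts and -0.26 to 0.14 with libraries left out, and -0.40 to 0.082 in Lint-O mutants. Prosalpha1 in L(3)mbt mutants was -0.58 to 0.033. The difference of Prosbeta2R2 between the mutants was -0.0061 with TMM, -0.0054 with only the 2 groups, -0.0057 in edgeR and -0.011 to 0.043 with libraries left out.

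Taken over 8933 genes together, same-numbered replicates did not deviate together (r = -0.17 to 0.12 over 9 pairs). Such a value cannot show whether they share a batch that acts on some genes. The replicate block gave 3 higher and 6 lower calls in L(3)mbt mutants and 1 and 1 in Lint-O mutants. The causes were not tested. The SE of core subunits other than Prosalpha1 was 0.05 to 0.07 on the log2 scale, which limits how small a change these libraries can resolve.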
